A study of Mus musculus with 4 samples.

Results

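DNA replication and nucleotide supply genes were followed in mouse T cells cultured with the cytokines of either the Tc1 or the Tc9 condition. The genes were 37 listed by function, covering origin licensing, helicase activation, the polymerases, the sliding clamp, single-strand binding, Okazaki fragment joining and deoxynucleotide synthesis. The array annotation named a probe set for 36 of them, out of 19505 genes tested, and Mcm7 is not analysed here. Each gene was represented by its brightest probe set over the 4 arrays.

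Before a cell copies its DNA, the origin recognition complex, Cdc6 and Cdt1 load the Mcm2 to Mcm7 helicase ring onto origins in G1, and in S phase Cdc45 and the GINS complex turn that ring into the active helicase. Polymerases, the Pcna clamp and its loader then extend the new strands, while ribonucleotide reductase, thymidylate synthase and thymidine kinase supply deoxynucleotides. Activated CD8 T cells divide fast, and many of these genes are E2F targets that are transcribed around the start of S phase.

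Total RNA was hybridised to 4 Affymetrix arrays, 2 labelled Tc1 and 2 labelled Tc9, and the titles number the arrays of each group 1 and 2. Tc1 is the usual name of interferon gamma producing CD8 T cells, and Tc9 that of CD8 T cells producing interleukin 9. The labels used here do not give the cytokines, culture times, mouse strain, age or tissue. Nothing in the labels says that the arrays of a group came from separate cultures or animals, so p-values measure only the spread between these arrays, which may be technical. The arrays numbered 1 and 2 differed in level, with median deposited intensities of 37.1 and 37.9 (Tc1 and Tc9) on those numbered 1 and 57.3 and 57.1 on those numbered 2. The difference within each numbered pair is therefore given beside the pooled one, and a difference in culture between the numbers and one in array processing cannot be told apart. The background limit of an array was the level that 95% of its negative control probe sets did not reach. The 8 measured genes listed for CD8 T cells, which include general T cell genes such as Cd3e, lay over it on all arrays. Cd8a lay between 4178 and 5305 and Cd2, the dimmest, between 252 and 346. Their log2 changes, Tc9 minus Tc1, had both signs, from -0.30 for Cd2 to 0.54 for Cd3d. Of 21 measured markers of other cell types, 20, Cd4 among them, stayed under that limit on each array. The other, the B cell receptor chain Cd79b, did so on 3 arrays. The summed signal of those 21 markers was 978 and 1037 on the Tc1 arrays and between 1028 and 1045 on the Tc9 arrays.

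Most of the replication genes had slightly less signal in Tc9 than in Tc1 cells, but none passed the test across all genes. Orc1, Orc6, Cdc6, Cdc45, Prim1, Rfc3 and the reductase subunit Rrm2 were between 1.34-fold and 1.44-fold lower on average (on the scale of intensity + 16), while the helicase subunits Mcm2 to Mcm5 and the clamp gene Pcna differed by less than their error. Mcm6, Rpa1, Lig1, Gins4, Rfc2 and Cdt1 had positive log2 changes, of which that of Cdt1 turned negative with median centring. Of the 36 genes, 30 (83.3%) had a negative log2 change, against 50.7% of all genes tested and 52.6% of the 9135 genes of like intensity (mean signal between 80.2 and 5451, the range of the 36). Those 9135 genes were still dimmer, with a median percentile of mean signal of 76.2 against 86.6 for the 36. Of them, 1447 were under the background limit on all 4 arrays, against 1 of the 36, so the match in intensity is loose. The same range was used beside the other lists. In bulk samples, fewer dividing cells and less of these transcripts per cell cannot be told apart.

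Values are deposited intensities after quantile normalization, and a log2 change is Tc9 minus Tc1 of log2(intensity + 16), which understates the change of dim genes. By limma, 0 of the 36 genes passed an adjusted p of 0.05, where 0.564% of all genes did (110 of 19505, 75 higher and 35 lower, or 13 and 3 with the values as deposited) and 1.18% of genes of like intensity, and the smallest adjusted p among the 36 was 0.225. At an unadjusted p under 0.05 there were 6 lower genes (Rrm2, Orc6, Orc1, Cdc6, Prim1 and Cdc45) and 0 higher ones, against a background of 2.34% lower and 2.94% higher over all genes and of 4.26% and 5.53% over genes of like intensity. Those 6 were also the genes whose 95% interval of the log2 change lay wholly below 0, and the interval spanned 0 for the other 30. With the values as deposited, without normalization between arrays, the 6 became 0, and without the Tc1 array numbered 1 they became 2.

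The median log2 change of the 36 genes was -0.20, against -0.0027 over all genes and -0.014 over genes of like intensity. Within the pairs the median was -0.12 for the arrays numbered 1 and -0.19 for those numbered 2. The median moved when a single array was left out, to -0.10 without the Tc1 array numbered 1 and -0.080 without the Tc9 array numbered 2. It was -0.19 without the Tc1 array numbered 2 and -0.25 without the Tc9 array numbered 1. Leaving out an array also leaves the array numbers unbalanced between the groups. Reliance on that array and the difference between the numbers cannot be told apart in these values. Both Tc9 arrays lay below both Tc1 arrays for 14 of the 36 genes (38.9%), against 15.1% of all genes and 18.9% of genes of like intensity. Both lay above for 4 genes (Mcm6, Rfc2, Rpa1 and Lig1), a share of 11.1% against 14% of all genes and 17.4% of genes of like intensity. The log2 change was negative in both pairs for 26 genes (72.2%; background 32% of all genes and 38.6% of those of like intensity), positive in both for 6 (16.7%; background 30.1% and 34%) and of opposite sign for 4.

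**Figure D1:**
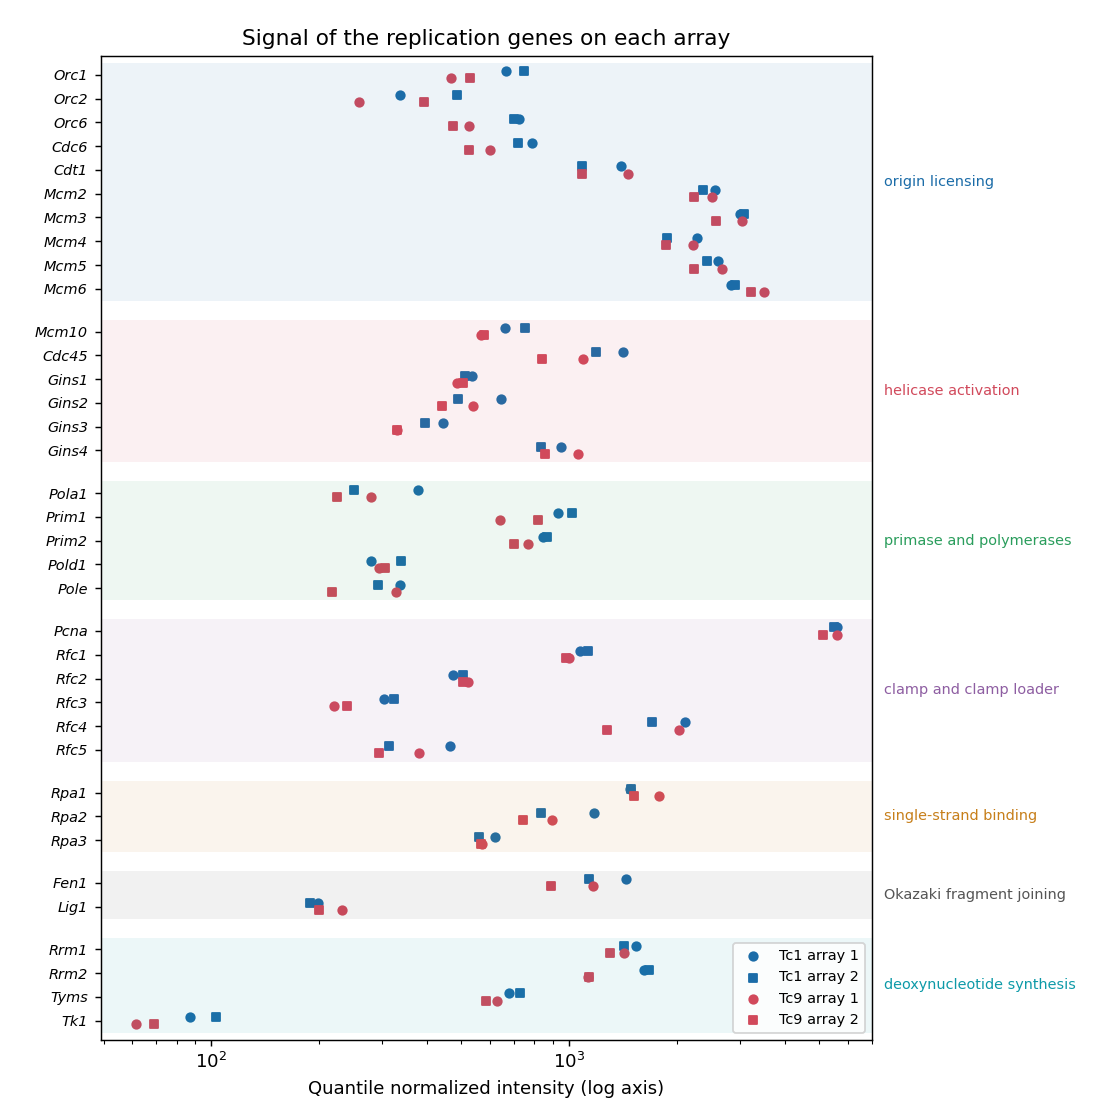
Quantile normalized intensity (log axis) of the 36 replication genes on each of the 4 arrays, in bands by role; blue marks are Tc1, red marks Tc9, circles the arrays numbered 1 and squares those numbered 2. Red marks lie to the left of blue for Orc1, Orc6, Cdc6, Cdc45, Prim1, Rfc3 and Rrm2, and mix with blue for Mcm2 to Mcm5 and Pcna.

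With the replicate number as a block in the fit, 14 of the 36 genes passed the adjusted threshold as lower and 1, Mcm6, as higher, against 7.37% and 6.34% of all genes and 13.9% and 11.9% of genes of like intensity. The lower ones were Rrm2, Cdc45, Orc6, Orc1, Prim1, Cdc6, Fen1, Rfc4, Rfc3, Rpa2, Mcm10, Gins3, Orc2 and Prim2. That fit left 1 residual degree of freedom and gave genes of like intensity the same spread. Without the intensity trend it called 8 of the 36, all lower (Orc1, Orc6, Cdc6, Cdc45, Prim1, Rfc3, Rrm2 and Tk1), where it called 3.41% of all genes lower and 3.9% higher, and 5.96% and 7.09% of genes of like intensity. Across the 36 genes, log2 changes in the 2 pairs correlated with r = 0.75 (0.67 over all 19505 genes), a description in which genes are not independent and the arrays were normalized together.

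**Figure D2:**
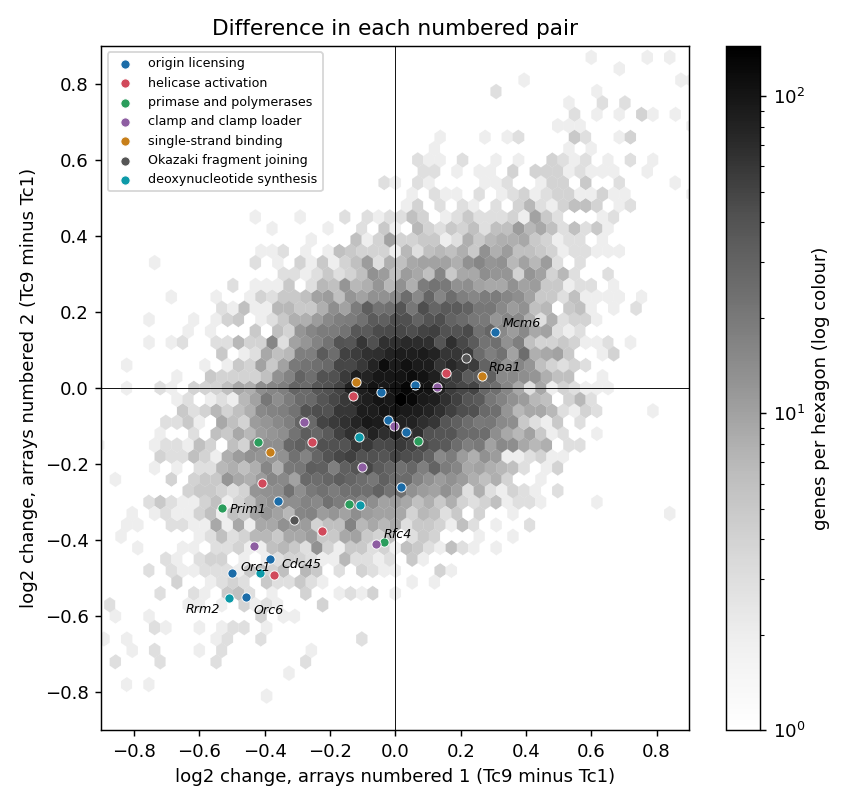
Log2 change (Tc9 minus Tc1) of each replication gene on the arrays numbered 1 (x axis) and numbered 2 (y axis), coloured by role, over a grey count of all genes per hexagon; axes are cut at 0.9. Rrm2, Orc1 and Orc6 lie farthest to the lower left, with changes between -0.46 and -0.55 in both pairs, and Mcm6 lies at the upper right.

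Origin recognition and loading genes held some of the largest differences. Orc1, the largest subunit of the origin recognition complex and an ATPase, measured 667 and 748 on the Tc1 arrays numbered 1 and 2 and 467 and 529 on the Tc9 arrays. Both Tc9 values lay below both Tc1 values, 1.41-fold lower on average (log2 change -0.49 ± 0.16, SE, limma adjusted p = 0.550; by pair, -0.50 and -0.49). Orc6, the smallest subunit, measured 724 and 701 in Tc1 and 523 and 474 in Tc9. The groups again did not overlap, with a log2 change of -0.50 ± 0.15 (limma adjusted p = 0.467; by pair, -0.46 and -0.55). Orc2, a core subunit, measured 336 and 486 in Tc1 and 259 and 393 in Tc9. Its values overlapped between the groups because the arrays numbered 2 were higher for both cell types, yet it was lower in both pairs, by log2 changes of -0.36 and -0.30 (limma adjusted p = 1.00; pooled -0.33 with a 95% interval from -0.94 to 0.29).

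Cdc6 and Cdt1, which work together to load the helicase, did not show the same pattern. Cdc6 measured 788 and 721 in Tc1 and 599 and 523 in Tc9, a log2 change of -0.42 ± 0.15 (limma adjusted p = 0.754; by pair, -0.39 and -0.45) without overlap. Cdt1 measured 1400 and 1083 in Tc1 and 1459 and 1089 in Tc9. The Cdt1 values went with the array number and not with the cell type, and its log2 change was 0.033 (95% interval -0.42 to 0.49), or -0.022 with median centring of the arrays. Whether Cdc6 and Cdt1 differed from each other was not tested.

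The Mcm2 to Mcm6 genes, which encode subunits of the helicase ring, were bright on every array, between 1866 and 3500. Mcm2 measured 2550 and 2368 in Tc1 and 2513 and 2234 in Tc9, a log2 change of -0.052 with a 95% interval from -0.34 to 0.24. Mcm3 measured 3004 and 3089 in Tc1 and 3042 and 2576 in Tc9. Of its 4 values only the Tc9 array numbered 2 stood low, and the log2 changes in the pairs were 0.018 and -0.26. Mcm4 (-0.027) and Mcm5 (-0.041) were closer to 0, with 95% intervals from -0.38 to 0.33 and from -0.35 to 0.27. These intervals leave room for differences of the size seen for Orc2, so they do not show that the ring genes were equal in the 2 cell types. Mcm6 measured 2827 and 2909 in Tc1 and 3500 and 3224 in Tc9. Both of its Tc9 values lay above both Tc1 values, the reverse of Orc1, with a log2 change of 0.23 ± 0.11 (limma adjusted p = 1.00; by pair, 0.31 and 0.15).

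**Figure D3:**
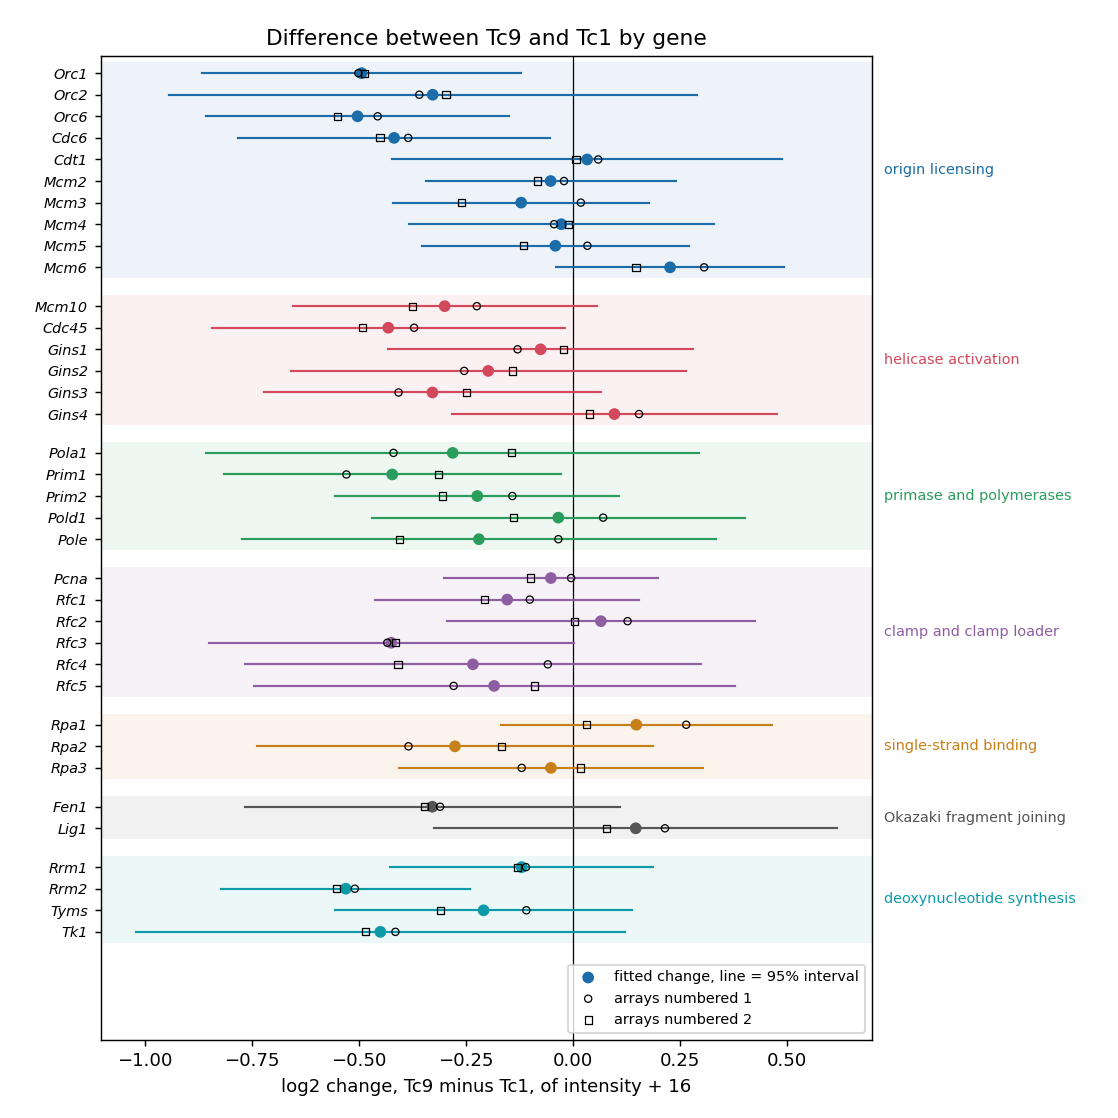
Fitted log2 change (filled points, Tc9 minus Tc1, of intensity + 16) of the 36 replication genes with its 95% interval (lines); open circles are the change between the arrays numbered 1 and open squares between those numbered 2. The intervals of Rrm2, Orc6, Orc1, Cdc6, Prim1 and Cdc45 lie wholly below 0, and no interval lies wholly above 0.

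Among the genes that activate the loaded helicase, Cdc45 had the largest difference. Cdc45, which joins the ring and GINS in the active helicase, measured 1419 and 1188 in Tc1 and 1093 and 840 in Tc9. Its Tc9 values lay below both Tc1 values, 1.35-fold lower on average, with a log2 change of -0.43 ± 0.17 (limma adjusted p = 0.877; by pair, -0.37 and -0.49). Mcm10, a firing factor at the nascent fork, measured 664 and 754 in Tc1 and 566 and 578 in Tc9, without overlap (log2 change -0.30, 95% interval -0.66 to 0.056). The 4 GINS subunits, which form 1 complex, had log2 changes from -0.33 for Gins3 to 0.097 for Gins4. Gins3 measured 443 and 396 in Tc1 and 330 and 331 in Tc9. Gins4 measured 948 and 834 in Tc1 and 1057 and 857 in Tc9, overlapping and slightly higher in each pair (0.15 and 0.039). Gins1 and Gins2 lay between them at -0.076 and -0.20, and the differences among the subunits were not tested.

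All 5 primase and polymerase genes had negative log2 changes, as had 83.3% of the 36 genes and 50.7% of all genes. The largest in size was that of Prim1. Prim1, the catalytic primase subunit that lays RNA primers, measured 930 and 1021 in Tc1 and 640 and 817 in Tc9. The groups did not overlap, and the log2 change was -0.42 ± 0.17 (limma adjusted p = 0.840; by pair, -0.53 and -0.32). Prim2, its partner, measured 847 and 869 in Tc1 and 766 and 700 in Tc9 (log2 change -0.22). Pola1, the catalytic subunit of the polymerase that works with primase, measured 379 and 250 in Tc1 and 279 and 225 in Tc9, with overlap (log2 change -0.28, 95% interval -0.86 to 0.30). Pold1, of the lagging strand polymerase, had a log2 change of -0.034, with 0.071 and -0.14 in the pairs. Pole, of the leading strand polymerase, had -0.22, of which the pair numbered 1 showed -0.034 and the pair numbered 2 showed -0.41.

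The sliding clamp gene Pcna was the brightest of the 36, at 5604 and 5488 in Tc1 and 5587 and 5123 in Tc9. Its log2 change was -0.052 with a 95% interval from -0.30 to 0.20. The clamp loader subunits, which open Pcna and close it around DNA, ranged from -0.42 for Rfc3 to 0.065 for Rfc2. Rfc3 measured 304 and 324 in Tc1 and 221 and 239 in Tc9, with no overlap and like changes in both pairs (-0.43 and -0.42; limma adjusted p = 0.948). Rfc4 measured 2109 and 1700 in Tc1 and 2025 and 1277 in Tc9. The low Tc9 array numbered 2 made up most of its change of -0.23, and the pairs gave -0.059 and -0.41. Without that array the log2 change of Rfc4 was 0.095, but this sets the Tc9 array numbered 1 against Tc1 arrays of both numbers. Rfc4 was higher on the arrays numbered 1 for both cell types. Rfc5 measured 466 and 314 in Tc1 and 381 and 294 in Tc9, with overlap (log2 change -0.18). Rfc1, the large subunit, had a log2 change of -0.15, and both genes had negative changes in both pairs.

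Single-strand binding and fragment joining genes each held changes of both signs. Rpa1, the large subunit of the single-strand binding protein, measured 1481 and 1485 in Tc1 and 1782 and 1518 in Tc9, higher in Tc9 by a log2 change of 0.15 (95% interval -0.17 to 0.47; by pair, 0.26 and 0.031). Rpa2, its middle subunit, measured 1171 and 837 in Tc1 and 893 and 744 in Tc9 (log2 change -0.28; by pair, -0.38 and -0.17), and the groups overlapped. Rpa3, the small subunit, measured 623 and 560 in Tc1 and 572 and 567 in Tc9, with overlap (log2 change -0.051). Fen1, the flap nuclease that trims Okazaki fragments, measured 1446 and 1137 in Tc1 and 1163 and 891 in Tc9, with like changes in the pairs (-0.31 and -0.35; pooled -0.33, limma adjusted p = 1.00). Its groups overlapped because the arrays numbered 1 were higher for both cell types. Lig1, the ligase that seals the fragments, was dim, at 198 and 189 in Tc1 and 233 and 200 in Tc9 (log2 change 0.15, 95% interval -0.32 to 0.62).

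All 4 deoxynucleotide genes had a negative log2 change in both pairs. So did 72.2% of the 36 genes, 32% of all genes and 38.6% of genes of like intensity. Rrm2, the small subunit of ribonucleotide reductase, which accumulates in S phase, measured 1618 and 1677 in Tc1 and 1131 and 1138 in Tc9. The gap between the groups was wide beside the spread within them, with means of 1647 ± 41.8 (SD, n = 2) and 1135 ± 4.94, 1.44-fold lower in Tc9. Its log2 change was -0.53 ± 0.12 (limma adjusted p = 0.225; by pair, -0.51 and -0.55), the largest of the 36 in size. Over the alternatives without a block its adjusted p ran from 0.184, with a filter on low values, to 1.00, with the values as deposited. The large subunit Rrm1 measured 1540 and 1423 in Tc1 and 1426 and 1299 in Tc9, a log2 change of -0.12 (95% interval -0.43 to 0.19). Tyms, which makes thymidylate, measured 677 and 728 in Tc1 and 627 and 584 in Tc9 (log2 change -0.21). Tk1, the salvage thymidine kinase, measured 87.3 and 103 in Tc1 and 61.5 and 69.1 in Tc9 (log2 change -0.45). Tk1 was the only one of the 36 under the background limit, and it was so on all 4 arrays, which leaves the size of its difference uncertain.

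The list of division markers outside the 36 held 2 genes, Mki67 and Top2a. Both lay lower on both Tc9 arrays than on both Tc1 arrays, as did 15.1% of all genes and 18.9% of genes of like intensity. Mki67 measured 532 and 679 in Tc1 and 403 and 515 in Tc9 (log2 change -0.39). Top2a measured 379 and 378 in Tc1 and 290 and 290 in Tc9 (log2 change -0.37, limma adjusted p = 1.00 for both). The part of a difference in division in the replication gene values was not tested.

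Promoters were read because E2F factors are known regulators of replication genes. The RefSeq promoter table (GRCm38.p6) held 29 of the 36 genes. In the 250 bases before the start site, an E2F-type motif (TTTCCCGC, TTTGGCGC, TTTCGCGC or TTTGCCGC, either strand) was found for 7 of the 29 (24.1%), against 2.81% of 15691 tested genes with a promoter. A CCAAT box (CCAATC or CCAATG, either strand), the site of NF-Y, was found for 17 (58.6%, against 29.4%). The CHR-type motif TTTGAA (either strand), known from mitotic genes, was found for 4 (13.8%, against 16.1%). Each kind was searched on its own, so matches could overlap, and overlapping matches were kept. The median log2 change was -0.33 for the 7 genes with an E2F-type motif and -0.20 for the 22 without it. Over all tested genes it was -0.035 with the motif and -0.0023 without. For the CCAAT box the medians were -0.28 with and -0.22 without, and for the CHR-type motif -0.33 with and -0.21 without.

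The 160 bases before the start site are shown for genes that differ in direction: Orc1, Cdc6 and Rfc3 with lower signal in Tc9, Mcm6 with higher signal, and Rrm2 with the largest difference. They are written on the gene's strand, with matches to the E2F-type motif and the CCAAT box in capitals. Orc1 lies at chr4:108579294-108579453 (plus strand), Cdc6 at chr11:98907991-98908150 (plus), Rfc3 at chr5:151651209-151651368 (minus), Mcm6 at chr1:128359706-128359865 (minus) and Rrm2 at chr12:24708094-24708253 (plus).
Orc1: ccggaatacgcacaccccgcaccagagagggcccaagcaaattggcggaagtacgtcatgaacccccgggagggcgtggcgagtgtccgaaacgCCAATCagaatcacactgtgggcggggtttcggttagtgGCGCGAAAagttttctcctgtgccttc
Cdc6: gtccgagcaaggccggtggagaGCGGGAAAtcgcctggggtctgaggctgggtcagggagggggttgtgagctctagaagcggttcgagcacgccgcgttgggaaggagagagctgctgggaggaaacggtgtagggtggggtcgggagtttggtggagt
Rfc3: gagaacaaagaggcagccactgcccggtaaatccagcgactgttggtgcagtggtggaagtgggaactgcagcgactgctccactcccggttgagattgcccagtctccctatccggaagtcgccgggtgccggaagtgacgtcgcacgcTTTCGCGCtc
Mcm6: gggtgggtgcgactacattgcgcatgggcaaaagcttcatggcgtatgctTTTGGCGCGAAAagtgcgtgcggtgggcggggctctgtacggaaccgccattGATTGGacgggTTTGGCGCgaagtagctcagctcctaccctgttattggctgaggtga
Rrm2: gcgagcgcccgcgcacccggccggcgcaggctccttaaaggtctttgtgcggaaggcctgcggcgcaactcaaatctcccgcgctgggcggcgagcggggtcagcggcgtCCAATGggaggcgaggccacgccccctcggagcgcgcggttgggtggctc
Counted from the first base of the match, the E2F-type match lay 27 bases before the start of Orc1, 138 before that of Cdc6 and 10 before that of Rfc3. Mcm6, whose signal was higher in Tc9, held 3 matches, at 110, 106 and 47 bases, the first 2 overlapping. Rrm2 held a CCAAT box at 50 bases and none of the 4 E2F-type words in this window. Of the 7 genes with an E2F-type motif, 6 had a negative log2 change, Mcm6 being the exception, beside 30 of the 36 replication genes (83.3%). Those 6 include Mcm5, whose log2 change was -0.041, with opposite signs in the pairs (0.034 and -0.12). A match is a description of the letters only.

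The rest of the pathway was read from 3 further lists. Of 39 other replication genes 0 passed limma, where 0.564% of all genes did. At an unadjusted p under 0.05, 2 were lower (5.13%) and 1 higher (2.56%), near the background of 2.34% and 2.94% over all genes and 4.26% and 5.53% over genes of like intensity. A negative log2 change was seen for 33 (84.6%, background 50.7% and 52.6%), with a median of -0.18. Pold4, Dna2 and Rnaseh2b had the smallest p-values of this list. Pold4, the smallest subunit of the lagging strand polymerase, measured 157 and 148 in Tc1 and 213 and 272 in Tc9 (log2 change 0.61, limma adjusted p = 0.693), but its 2 Tc1 values were under the background limit, which leaves its size uncertain. Dna2, a nuclease and helicase of flap processing, measured 137 and 165 in Tc1 and 88.8 and 96.8 in Tc9 (log2 change -0.61, adjusted p = 0.793), under the background limit on all 4 arrays. Rnaseh2b, of the enzyme that removes ribonucleotides from DNA, measured 721 and 717 in Tc1 and 535 and 582 in Tc9 (log2 change -0.36, adjusted p = 0.899).

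Of 27 genes of S phase entry and the replication checkpoint, 0 passed limma, where 0.564% of all genes did. At an unadjusted p under 0.05, 4 were lower (14.8%, background 2.34% of all genes and 4.26% of those of like intensity) and 1 higher (3.70%, background 2.94% and 5.53%). The log2 change was negative in both pairs for 23 (85.2%, background 32% and 38.6%), and the median was -0.26. Ccne1, a cyclin that drives S phase entry, measured 1103 and 884 in Tc1 and 744 and 688 in Tc9 (log2 change -0.46, limma adjusted p = 0.698). Its relative Ccne2 measured 214 and 215 in Tc1 and 137 and 141 in Tc9 (-0.57, adjusted p = 0.686), under the background limit on both Tc9 arrays, so its size is uncertain. Cdc25a, the phosphatase that activates their kinase, measured 658 and 697 in Tc1 and 519 and 516 in Tc9 (log2 change -0.38, limma adjusted p = 0.819). None of the 3, chosen by smallest p, overlapped between the groups. Both Tc9 arrays lay below both Tc1 arrays for 12 of the 27 (44.4%, background 15.1% and 18.9%). Both lay above for 2 (7.41%, background 14% and 17.4%). The E2F repressor E2f8, named after its values were seen, had the most negative log2 change of this list, at -0.84 (by pair, -0.91 and -0.77), but its Tc1 arrays lay at 328 and 607 and its Tc9 arrays at 167 and 348, of which 1 was under the background limit.

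Nucleotide supply outside the 36 genes was the one place where a gene passed the test, and it rose. Prps1, which makes the ribose phosphate donor that purine and pyrimidine synthesis both use, measured 1939 and 1674 in Tc1 and 3592 and 3249 in Tc9. Both Tc9 arrays lay well above both Tc1 arrays, 1.89-fold on average (log2 change 0.92 ± 0.13, limma adjusted p = 0.0394; by pair, 0.88 and 0.95). The call was lost with the values as deposited (adjusted p = 1.00), with median centring (0.0729), with a pseudocount of 64 (0.0506) and without the intensity trend (0.162). Sharing of signal with close copies of Prps1 was not examined.

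Of the 36 measured genes in that nucleotide list, Prps1 alone passed (2.78%, background 0.564% of all genes and 1.18% of those of like intensity). At an unadjusted p under 0.05, 4 were lower (11.1%, background 2.34% and 4.26%) and 4 higher (11.1%, background 2.94% and 5.53%), and the median was -0.17. A negative log2 change was seen for 26 of this list (72.2%, background 50.7% and 52.6%). The change was negative in both pairs for 25 (69.4%, background 32% and 38.6%) and positive in both for 8 (22.2%, background 30.1% and 34%). Adssl1, among the 4 higher genes, was under the background limit on all 4 arrays. Genes named here after their values were seen pointed both ways. Slc29a1, a nucleoside transporter for salvage, measured 396 and 497 in Tc1 and 705 and 896 in Tc9 (log2 change 0.82, limma adjusted p = 0.225), and Ctps2, a CTP synthase, measured 288 and 365 in Tc1 and 445 and 625 in Tc9 (0.67, adjusted p = 0.578). Against these, Mthfd2, a mitochondrial folate enzyme that feeds purine synthesis, measured 2200 and 1989 in Tc1 and 1668 and 1129 in Tc9 (-0.60, adjusted p = 0.553), and Shmt1, a cytosolic folate enzyme, measured 1196 and 1018 in Tc1 and 812 and 791 in Tc9 (-0.45, adjusted p = 0.553). Rrm2b, the reductase subunit used outside S phase, measured 180 and 166 in Tc1 and 95.6 and 114 in Tc9 (-0.65, adjusted p = 0.676), under the background limit on all 4 arrays. Without 1 array, Slc29a1 passed in the absence of the Tc1 array numbered 2 (adjusted p = 0.0458) or of the Tc9 array numbered 1 (0.00781), and Mthfd2 in the absence of the latter (0.00435).

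**Figure D4:**
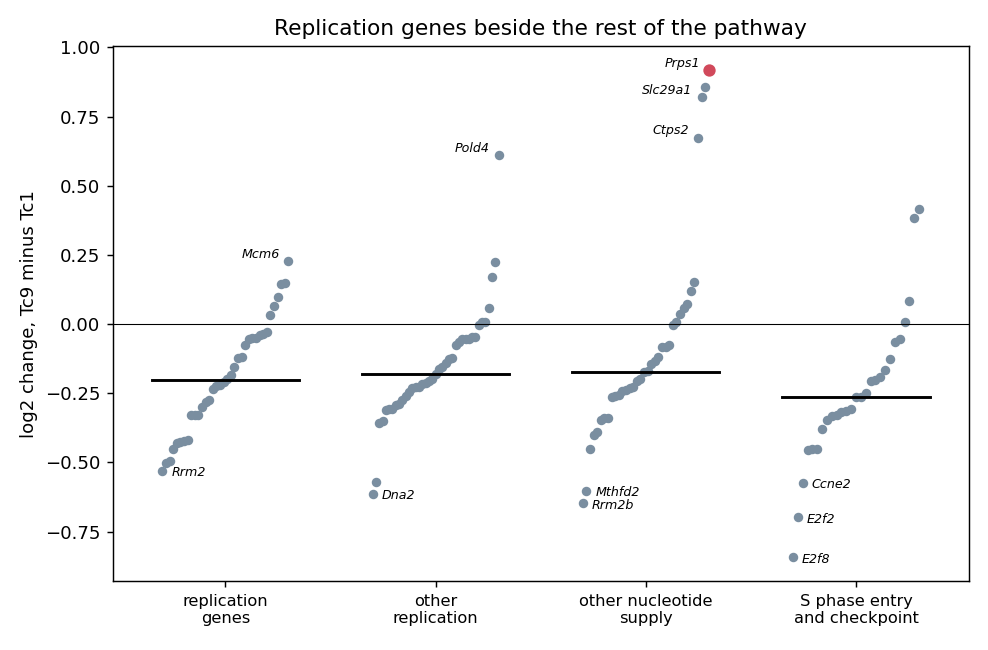
Log2 change (Tc9 minus Tc1) of each measured gene in the 36 replication genes and in 3 further lists, sorted within each list; black bars are the list medians and the red point is past the limma threshold. Prps1 is the red point, at 0.92, and the 4 medians lie between -0.17 and -0.26.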

How the data were processed

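Expression was measured on 4 Affymetrix arrays, 2 per cell type, per the labels' protocols. The authors deposited a table with 1 intensity per array for 28846 probe sets. How these were background corrected and summarized is not given in the sources used here; their range shows a linear scale. The number of arrays limits the precision. Control probe sets (6640) were left out. The other 22206 were quantile normalized, 16 was added and log2 was taken. Of these, 19572 carried 1 gene symbol in the platform annotation, and the brightest probe set of a gene was used (19505 genes). Tc9 was compared with Tc1 by limma 3.58.1 under R 4.3.3, fitting with lmFit and an intensity-trended eBayes, with Benjamini-Hochberg adjustment over all genes and a threshold of 0.05. The fit had 2 residual and 5.09 prior degrees of freedom, and its code was tested on simulated data. Intervals are the 95% intervals of that fit. Background signal was judged against the 95th percentile of 5222 negative control probe sets on each array.

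Members and lists were chosen with earlier results of these data known, and no set test was run. The genes given in full were, by rule, up to 3 per role by size of change, and in the further lists those past the threshold or else the 3 with the smallest p. Orc2, Cdt1, Mcm2, Mcm3, Mcm6, Gins4, Pcna and Rrm1 were also given in full, added after their values were seen. Arrays sharing a number deviated together from their group means (r = 0.73 over genes), but the labels do not say that a number marks a shared culture, so the main test has no block. Alternatives were the normalization, the pseudocount, the variance model, a filter at the 25th percentile of mean signal, the replicate number as a block, the mean of a gene's probe sets, and leaving out each array. Promoters are from RefSeq.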

Additional observations from a re-analysis of the deposited data

How the results depend on the processing

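The count of genes past the threshold (110) moved to 16 with the values as deposited (the cause was not tested), 73 with median centring, 56 without the intensity trend, 2674 with the replicate block, 1426 with the replicate block without the trend, and between 186 and 274 when 1 array was left out. Of the 36 replication genes, 15 passed with the replicate block and 8 with the replicate block without the trend, and 0 under each of the other alternatives run, leaving out an array included. The share of calls higher in Tc9 was 68.2%, against 81.2% with the values as deposited, 64.4% with median centring, 46.2% with the replicate block, 53.3% with the block without the trend and 54.7% without the Tc9 array numbered 2. The median log2 change of the 36 genes stayed negative under all alternatives run, between -0.25 and -0.080 when 1 array was left out and between -0.24 and -0.18 otherwise. The number of genes with a negative log2 change was 31 with median centring, where only Cdt1 turned (-0.022), and ran from 24 to 32 when 1 array was left out. In that case signs turned for 12 genes, whose log2 changes ran from -0.14 to 0.032 for Mcm2, -0.17 to 0.11 for Mcm4, -0.17 to 0.084 for Mcm5, -0.18 to 0.24 for Cdt1, -0.052 to 0.25 for Gins4, -0.57 to 0.0044 for Pola1, -0.16 to 0.095 for Pold1, -0.50 to 0.062 for Pole, -0.11 to 0.011 for Pcna, -0.56 to 0.095 for Rfc4, -0.46 to 0.089 for Rfc5 and -0.13 to 0.022 for Rpa3. The cause was not tested. Prps1, the one pathway gene past the threshold, lost its call with the values as deposited, with median centring, with a pseudocount of 64 and without the trend, in its direction as before. An array left out leaves its group with a lone array, assumed to vary like the other group. It also leaves the array numbers unbalanced between the groups. Of the 12 genes whose sign turned, Mcm5, Pold1 and Rpa3 had opposite signs in the numbered pairs. The others had the same sign in both pairs. Dim genes such as Tk1 lie near background, where a change cannot be sized.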
